A study of Mus musculus with 6 samples.

Results

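The EGF receptor family and the growth factors that are shed from cell membranes to bind it were described in mouse heart messenger RNA, as 10 listed genes of 33922 genes in the files. The 10 were chosen by name: the receptor genes Egfr, Erbb2, Erbb3 and Erbb4, and the ligand genes Nrg1, Nrg4, Hbegf, Btc, Tgfa and Egf. Hearts came from mice aged 32 weeks. The 3 libraries numbered 4, 5 and 6 were of genotype ApoE-/- Timp3-/- and are called the double mutants; Timp3 encodes TIMP3, a protease inhibitor of the extracellular matrix. The 3 libraries numbered 1, 2 and 3 were of ApoE-/- littermates and are called the controls. Loss of apolipoprotein E, which raises blood cholesterol and leads to atherosclerosis in mice, was thus shared by every animal, and wild-type hearts were not analysed here. No source used here gives the sex or the diet of the mice. Each value is an FPKM, the number of sequenced fragments scaled by transcript length and library size, summed over the transcripts of a gene.

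The 4 receptors are tyrosine kinases that pair with one another when a ligand binds. ERBB2 has no known ligand of its own and ERBB3 has a weak kinase, so each depends on a partner. The ligands are made as membrane-anchored precursors, and proteases of the ADAM family cut them free. TIMP3 inhibits several of these proteases, ADAM17 among them. In the heart, neuregulin 1 from endothelial cells acts on ERBB4 paired with ERBB2 on cardiomyocytes, and HB-EGF and EGFR are needed for normal valves.

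ERBB4 is itself a substrate of ADAM17, depending on which of 2 exons its transcript carries next to the membrane-spanning part. Protein made with the JM-a exon can be cut by ADAM17 and protein made with the JM-b exon resists it. A further exon, CYT-1, adds a docking site for PI3-kinase to the inner part of the receptor. These 3 exons are printed because the transcripts of Erbb4 described below differ by them. Capitals mark the alternative exon and lower case the 15 bases on either side in the mature transcript, 5′ to 3′. The sequences are from the GENCODE M21 transcripts, and the exons lie on the minus strand of GRCm38 at chr1:68290243-68290317 (JM-a), chr1:68290439-68290483 (JM-b) and chr1:68043908-68043955 (CYT-1).
JM-a: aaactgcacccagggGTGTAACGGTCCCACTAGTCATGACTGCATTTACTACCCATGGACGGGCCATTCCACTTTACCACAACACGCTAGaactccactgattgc
JM-b: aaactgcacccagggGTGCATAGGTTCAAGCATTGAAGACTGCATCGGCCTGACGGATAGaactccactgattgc
CYT-1: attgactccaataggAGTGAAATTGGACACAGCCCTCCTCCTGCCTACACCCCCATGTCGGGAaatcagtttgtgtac
The JM-a exon is 75 nt long and the JM-b exon 45 nt, and both sit between the same flanking bases. The CYT-1 exon is 48 nt long. In the deposited files, which use build NCBIM37, the same exons lie on chromosome 1 at 68336817 to 68336891, 68337013 to 68337057 and 68090482 to 68090529.

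The libraries differed in depth and in tissue content, which bears on several values below. Coverage times transcript length gave 683 to 910 aligned megabases in the double mutants and 654 to 1339 in the controls. Markers of ventricular muscle were abundant in every library, all 8 of 8 above 0. Transcripts of Timp3 itself were still present in the double mutants, at an FPKM of 20.2, 28.0 and 29.6 (libraries 4, 5 and 6), against 52.1, 38.0 and 36.3 (libraries 1, 2 and 3; log2 difference -0.60, adjusted p = 0.30 by limma). No source used here says which exons the mutation removes, so genotypes below are those of the labels. Control library 1 had the most adipocyte RNA, with a summed FPKM of 193 over 6 markers, against 1.08 to 25.4 in the double mutants and 3.47 to 4.34 in the other controls. Double-mutant library 4 had the most red blood cell RNA, with 3011 over 2 markers, against 104 and 306 in the other double mutants and 26.3 to 128 in the controls.

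Among genes listed above 0, Hbegf stood at percentile 63.6 by mean FPKM, Erbb4 at 59.9, Erbb3 at 50.9 and Erbb2 at 49.8, and Nrg1 was the lowest of the members above 0, at 33.3. In mean FPKM over the 6 libraries, Hbegf stood first with 2.96, followed by Erbb4 with 2.42, Erbb3 with 1.34 and Erbb2 with 1.23. The other 6 genes, Egf, Egfr, Tgfa, Btc, Nrg1 and Nrg4, were below 1 FPKM in the mean and in each of the 6 libraries. Hbegf was the only one above 1 in all 6 libraries. Nearest to the line of 1 FPKM, Erbb2 lay inside with a mean of 1.23 and Egf outside with 0.720. Most neighbours in this order did not hold in every library. Among the 9 genes listed above 0, Erbb2 above Egf was the one neighbouring pair whose order held in 6 of 6 libraries, and the others held in 3 to 5. The order was made from the same values, so it is a description with no test.

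**Figure D1:**
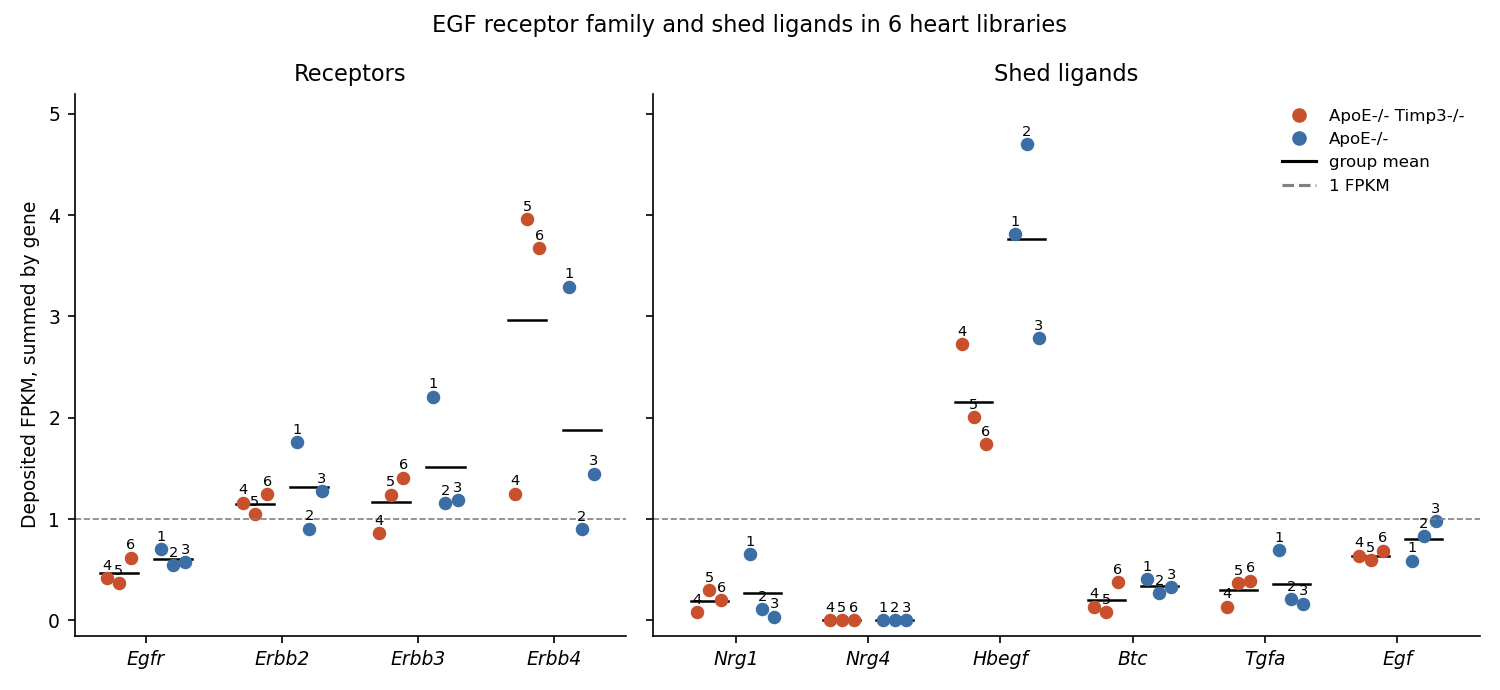
Deposited FPKM (vertical axis) of the 4 receptors and 6 ligands (horizontal axis), with 1 numbered point per library, double mutants left of controls; black bars are group means and the dashed line is 1 FPKM. Hbegf is the only gene with every point above the line, and the points of Erbb4 fall into a high and a low set within both genotypes.

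Between the genotypes, 4 of the 10 genes entered the test over all genes and 0 of them passed it, and the other 6 lay below its line of 1 FPKM. The 4 genes with a mean of at least 1 FPKM entered that test, limma on log2(scaled FPKM + 1) with Benjamini-Hochberg adjustment, and 0 of 4 had an adjusted p under 0.05, against 0.0444% of the 11270 genes tested. At an unadjusted p under 0.05 stood 1 of the 4, Hbegf, in the lower direction, where 5.18% of all genes stood. The groups did not overlap for the same 1 gene, lower in the double mutants, as for 9.14% of all genes. In the higher direction the members' counts were 0 by both measures, against 6.73% of all genes at an unadjusted p under 0.05 and 9.83% without overlap. Fewer cells of a type and less RNA per cell cannot be told apart in these bulk samples.

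Egfr, the receptor for EGF, TGF-alpha, betacellulin and HB-EGF (chromosome 11, 16652206 to 16818161), had an FPKM of 0.420, 0.365 and 0.619 in double-mutant libraries 4, 5 and 6, against 0.701, 0.546 and 0.575 in control libraries 1, 2 and 3. Library 6 lay above controls 2 and 3, so the groups overlapped, and the mean was below the line of 1 FPKM set for the test. The exact permutation p was 0.3, and 0.1 is the smallest that 3 against 3 libraries allow. By aligned bases, per kilobase of the longest transcript and per megabase aligned, the groups did not overlap, unlike by the summed FPKM. Egfr was then at 0.485, 0.644 and 0.704 in the double mutants and at 1.18, 0.765 and 0.826 in the controls. This measure was chosen after seeing the data, and the share of all genes without overlap by it was not computed. The transcripts behind the sum differed more than the sum. Transcripts that ran from the first to the last exon had 0.167, 0.204 and 0.183 FPKM in the double mutants and 0.701, 0.361 and 0.375 in the controls. An assembled transcript of 7 exons at the end of the gene, 7468 nt long, was listed in each double mutant, at 0.104, 0.161 and 0.202 FPKM, and in 0 controls. Shorter reference forms, with the first exons of the gene only, had 0.148, 0 and 0.234 FPKM in the double mutants and 0, 0.184 and 0.199 FPKM in the controls. The one in library 6 was 2212 nt long and the one in libraries 4, 2 and 3 was 2943 nt long. The full-length form was lower in each double mutant than in each control, and this comparison was picked after the values were seen. The share of all transcripts that separate like it, or like the 7-exon form, was not computed. By gene sums after scaling, 9.14% of all genes tested were lower without overlap. Long transcripts as a class were low in some libraries: over the 176 tested genes whose longest transcript was at least 10000 nt, Egfr's length class, the median deviation from a gene's own mean was -0.23, 0.09 and 0.09 (log2) in libraries 4, 5 and 6, against 0.13, -0.18 and 0.09 in libraries 1, 2 and 3. The part of transcript length in the Egfr values was not tested.

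Erbb2, the partner receptor without a ligand of its own, lies on chromosome 11, 98273784 to 98299030. Its FPKM was 1.16, 1.05 and 1.24 in libraries 4, 5 and 6, against 1.76, 0.905 and 1.28 in libraries 1, 2 and 3. The 3 double mutants lay inside the range of the controls. Scaled means were 1.18 ± 0.0473 FPKM in the double mutants and 1.26 ± 0.321 in the controls (SD, n = 3 each). The log2 difference was -0.04 with a 95% interval from -0.41 to 0.32 (adjusted p = 0.94 by limma). It turned to 0.03 without library 1, the highest control. In libraries 5 and 6 part of the sum came from a shorter reference form of 26 exons, at 0.446 and 0.879 FPKM, which was at 0 in the other 4 libraries. The tested genes nearest to Erbb2 in pattern over the 6 libraries were Prkce, a protein kinase C gene, Kbtbd7 and Zadh2, at root mean square distances of 0.0095, 0.030 and 0.035 on the log2 scale.

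Erbb3, the receptor with a weak kinase that in the adult is known from Schwann cells and epithelia (chromosome 10, 128004579 to 128026708), was highest in a control. Its FPKM was 0.863, 1.24 and 1.41 in double-mutant libraries 4, 5 and 6, against 2.21, 1.15 and 1.19 in control libraries 1, 2 and 3. The other controls, libraries 2 and 3, lay inside the range of the double mutants. Scaled means were 1.21 ± 0.314 FPKM in the double mutants and 1.44 ± 0.395 in the controls (SD, n = 3 each), with a log2 difference of -0.14 and a 95% interval from -0.57 to 0.28 (adjusted p = 0.80 by limma). Leaving out library 1 or library 4 gave -0.02, and leaving out library 2 gave -0.23. Assembled transcripts of 24 exons, which lacked the first exons of the full-length 28, carried 1.41 FPKM in library 6 and 1.79 and 1.15 in libraries 1 and 2. Another assembled transcript, of the opposite strand, covered 2573 to 2634 bases of Erbb3 exons at 1.06, 0.602 and 0.825 FPKM in libraries 4, 5 and 6 and at 0.420 and 0.884 in libraries 2 and 3; it was not listed in library 1. No source used here says whether library preparation kept the strand. With such transcripts counted on either strand, a choice made after seeing the data, Erbb3 was at 1.92, 1.84 and 2.23 FPKM in the double mutants and at 2.21, 1.57 and 2.07 in the controls. Library 1 then no longer stood apart, and the log2 difference turned to 0.08 (adjusted p = 0.86 by limma). The nearest genes in pattern were Cggbp1, Ids, a lysosomal sulfatase gene, and Ppwd1, at distances of 0.037, 0.037 and 0.039.

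Erbb4, the neuregulin receptor of cardiomyocytes (chromosome 1, 68078760 to 69154633), varied most among the 4 receptors, its highest value being 4.41 times its lowest. Its FPKM was 1.25, 3.96 and 3.67 in double-mutant libraries 4, 5 and 6, against 3.29, 0.898 and 1.45 in control libraries 1, 2 and 3. The high values were in libraries 5, 6 and 1 and the low ones in libraries 4, 2 and 3, so each genotype held both. Scaled means were 3.09 ± 1.66 FPKM in the double mutants and 1.76 ± 0.977 in the controls (SD, n = 3 each). The log2 difference was 0.53, with a 95% interval from -0.37 to 1.43 (adjusted p = 0.64 by limma). It was 0.92 without library 4 and 0.79 without library 1, against 0.28 without library 5 and 0.29 without library 2. The smaller of its 2 within-genotype ranges was 1.01 on the log2 scale, and 174 genes, 1.54% of those tested, ranged at least as widely in both genotypes. As a share of the receptors' summed FPKM, Erbb4 was 33.9%, 59.8% and 52.9% in libraries 4, 5 and 6, against 41.4%, 25.6% and 32.3% in libraries 1, 2 and 3.

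Genes of atrial muscle stood high in the same 3 libraries as Erbb4. Sln, encoding sarcolipin, an inhibitor of the calcium pump, had 2.05, 59.5 and 104 FPKM in libraries 4, 5 and 6, against 151, 0.79 and 1.51 FPKM in libraries 1, 2 and 3. Myl7, the atrial regulatory myosin light chain, was at 13.4, 173 and 229, against 409, 2.09 and 1.21. Myl4, the atrial essential light chain, was at 20.1, 139 and 239, against 315, 9.87 and 6.33. These 3 genes thus separated the same libraries as Erbb4, with far wider gaps. Over the list of 5 atrial markers, the summed FPKM ran from 177 to 1456 in the double mutants and from 113 to 1699 in the controls, and Bmp10 was the one marker listed at 0, in library 4. Nppa, the atrial natriuretic peptide gene, did not follow the split, with 142, 491 and 852 against 823, 802 and 104. The part of atrial tissue in the Erbb4 values was not tested.

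**Figure D2:**
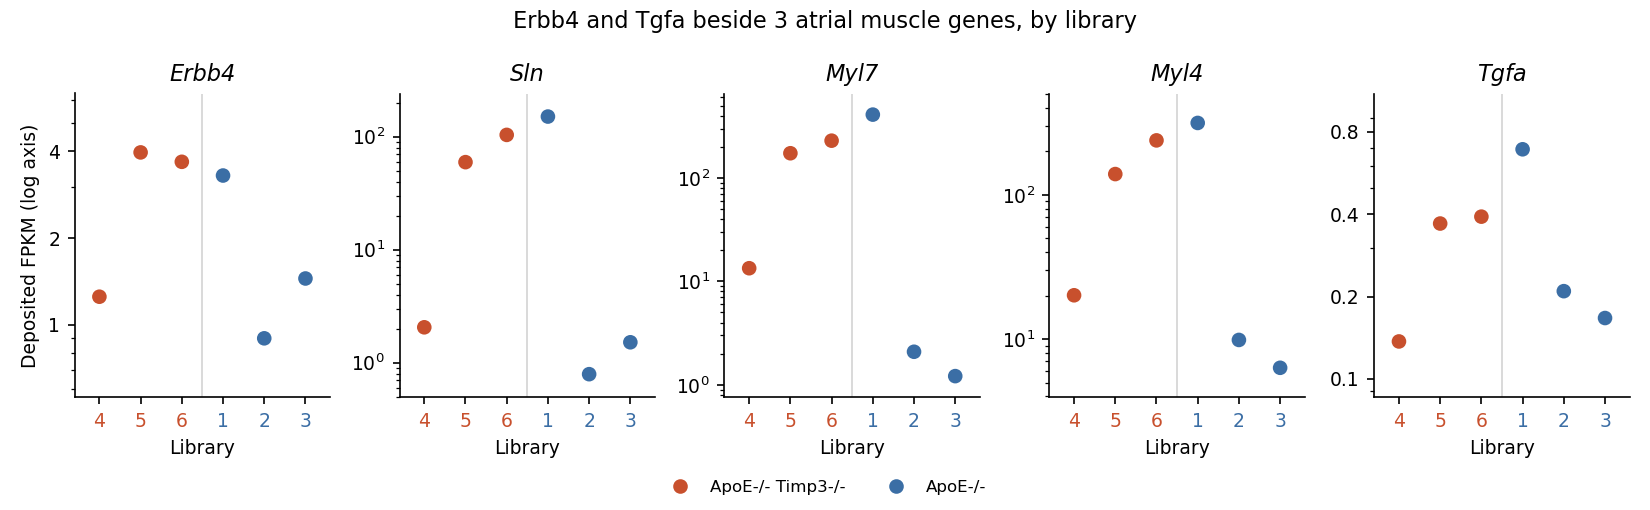
Deposited FPKM (vertical axes, log scale) of Erbb4, of the atrial muscle genes Sln, Myl7 and Myl4, and of Tgfa in each library, double mutants left of the line and controls right of it. In all 5 panels libraries 5, 6 and 1 lie above libraries 4, 2 and 3.

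The same 3 libraries were the highest for 4 of the 9 members listed above 0, Erbb3, Erbb4, Nrg1 and Tgfa, and for 1206 of the 11270 genes tested, which is 10.7%. Erbb3 was among them by a small margin, with 1.24 FPKM in library 5 against 1.19 in library 3. With assembled transcripts counted on either strand, Erbb3 was lower in library 5, at 1.84, than in library 3, at 2.07. The split of libraries 5, 6 and 1 from libraries 4, 2 and 3 was named after the values were seen and gets no test. Among the sums over 13 lists of cell type markers, it was shared by 5: atrial cells, endocardium, Schwann cells, epicardium and mesothelium, and macrophages. Not all of their single markers shared it: 4 of 5 atrial, 1 of 4 endocardial, 3 of 8 Schwann cell, 3 of 8 epicardial and 3 of 7 macrophage markers did. The Schwann cell sum over 8 markers was 3.96, 6.54 and 6.51 FPKM in libraries 4, 5 and 6, against 13.0, 2.48 and 4.02 in libraries 1, 2 and 3, with 0 of the 8 at 0 in a library. The macrophage sum over 7 markers was 51.5, 52.2 and 67.0 FPKM, against 142, 50.9 and 42.8. Library 1 held the top value of both sums. The endocardial sum over 4 markers was 17.5, 18.8 and 23.5 FPKM, against 30.7, 16.3 and 10.6. The genes nearest to Erbb4 in pattern were Gm16332, Cdh19, a cadherin gene in the Schwann cell list, and Gng2, a G protein subunit gene, at distances of 0.097, 0.16 and 0.17 on the log2 scale. Cdh19 had 1.41, 3.87 and 3.04 FPKM in the double mutants and 3.26, 1.27 and 1.85 in the controls. The part of these cell types in the members' values was not tested. Erbb4 belongs, with a longest transcript of 12037 nt, to the class of long transcripts that were low in libraries 4 and 2, and the part of length was not tested.

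Nearly all Erbb4 FPKM, 98.0%, came from transcripts that Cufflinks had assembled, separately in each library. The 6 reference transcripts were at 0 in 5 libraries, and in library 4 one of them, with the JM-a and CYT-1 exons printed above, had 0.297 FPKM. Of 9 assembled transcripts, 8 held the JM-b exon, 0 held the JM-a exon and 1 held neither. The JM-b exon was therefore in 76.3%, 100% and 83.1% of Erbb4 FPKM in libraries 4, 5 and 6, against 100% in each of libraries 1, 2 and 3. The JM-a exon was in 23.7% in library 4 and in 0% elsewhere. The form that resists ADAM17 was thus the main one listed in all 6 hearts. The CYT-1 exon was in 23.7%, 38.9% and 31.9% of Erbb4 FPKM in the double mutants, against 100%, 0% and 0% in the controls. The controls held the lowest and the highest share, so the genotypes overlapped. In library 5 the whole CYT-1 share, 1.54 FPKM, came from an assembled transcript of 16 exons. That transcript began at exon 12 of the 28 exons of the full-length form. Cufflinks listed none of these transcripts as fully supported by reads, and in libraries 1, 2 and 3 a single transcript carried the whole sum, so a minor exon may go unlisted there. Reads across each exon's edges were not analysed here.

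**Figure D3:**
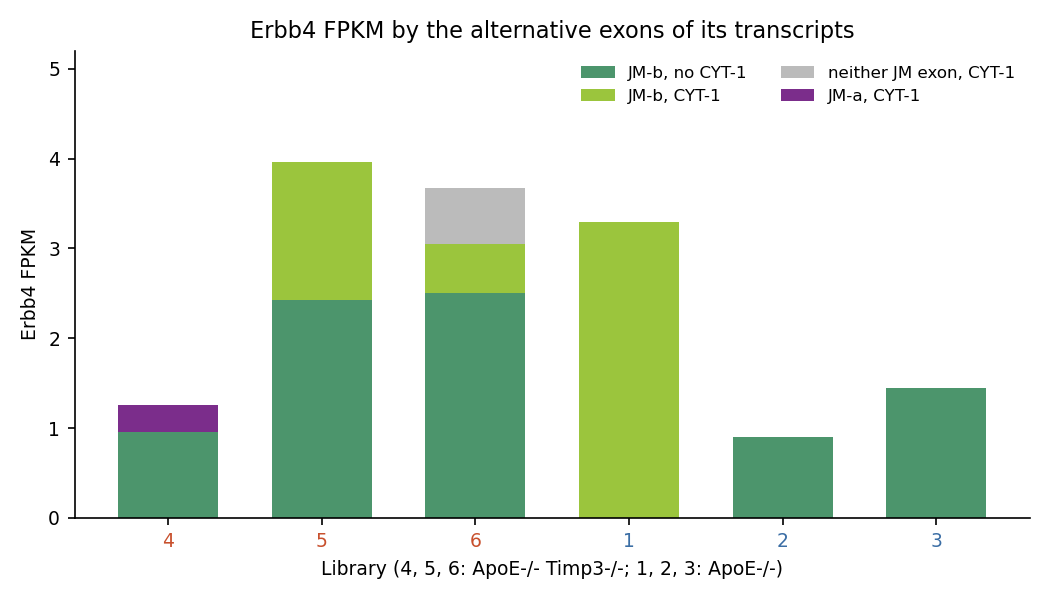
Erbb4 FPKM (vertical axis) in each library (horizontal axis), double mutants left, stacked by the alternative exons that the listed transcripts hold. The 45-nt JM-b exon makes up most of each bar, the 75-nt JM-a exon appears in library 4 alone, and the CYT-1 exon makes up the whole bar of library 1.

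Among the ligands, Hbegf led. It encodes heparin-binding EGF-like growth factor, which binds EGFR and ERBB4 (chromosome 18, 36664583 to 36675459). Its FPKM was 2.73, 2.01 and 1.74 in double-mutant libraries 4, 5 and 6, against 3.82, 4.70 and 2.78 in control libraries 1, 2 and 3. Each double mutant lay below each control, with library 4 only just below library 3. Scaled means were 2.21 ± 0.474 FPKM in the double mutants and 3.65 ± 0.888 in the controls (SD, n = 3 each). The log2 difference was -0.53 ± 0.18 (SE), with a 95% interval from -0.95 to -0.10. Limma gave an unadjusted p of 0.022 and an adjusted p of 0.34, and the exact permutation p was 0.1, the smallest possible. Without a single library the difference ran from -0.63 without library 3 or 4 to -0.38 without library 2. The unadjusted p by limma was then 0.068 without library 2 and 0.074 without library 6, and stayed under 0.05 without any other library.

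The size of the Hbegf difference depended on whether assembled transcripts, which were listed in 2 controls, were counted. Its one reference transcript had 2.73, 2.01 and 1.74 FPKM in the double mutants and 1.90, 2.54 and 2.78 in the controls, and by it alone the groups overlapped, with a log2 difference of -0.08 (adjusted p = 0.93 by limma). Assembled transcripts added 1.91 FPKM in library 1, with 4 exons at the end of the gene, and 2.16 in library 2, with 7 exons. They were not listed in the other 4 libraries. Aligned bases were Cufflinks coverage times transcript length, summed over the same transcripts, so they still rest on how Cufflinks shared reads. Per kilobase of the longest transcript and per megabase aligned, the double mutants had 4.61, 3.90 and 2.93. The controls had 5.30, 7.94 and 5.01. By this measure, chosen after seeing the data, the groups again did not overlap. The share of all genes without overlap by it was not computed. The log2 difference was -0.49 (unadjusted p = 0.065, adjusted p = 0.45 by limma). The summed FPKM over 8 markers of smooth muscle and pericytes, most of it from Rgs5, was 273.3, 280.0 and 281.2 in the double mutants and 307.5, 375 and 350 in the controls. Of these 8, 4 were lower in each double mutant than in each control (Rgs5, Pdgfrb, Kcnj8 and Notch3) and 4 overlapped, among them Acta2, at 53.5, 33.2 and 34.5 FPKM in the double mutants and 35.1, 22.0 and 24.5 in the controls. The endothelial sum over 8 markers was 168, 118 and 144 against 188, 193 and 161, with 5 of the 8 lower without overlap and 3 overlapping. Of the 8 fibroblast markers, 4 were also lower without overlap and 4 overlapped. Of the 8 ventricular muscle markers, 0 were lower without overlap, 2 were higher without overlap and 6 overlapped. These marker counts used unscaled FPKM. After scaling, 9.14% of all genes tested were lower and 9.83% higher without overlap. All 16 smooth muscle, pericyte and endothelial markers were above 0 in every library. The part of these cells and of fibroblasts in the Hbegf values was not tested. As a share of the 6 ligands' summed FPKM, Hbegf was 73.2%, 60.0% and 51.2% in the double mutants and 61.9%, 76.7% and 64.9% in the controls.

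**Figure D4:**
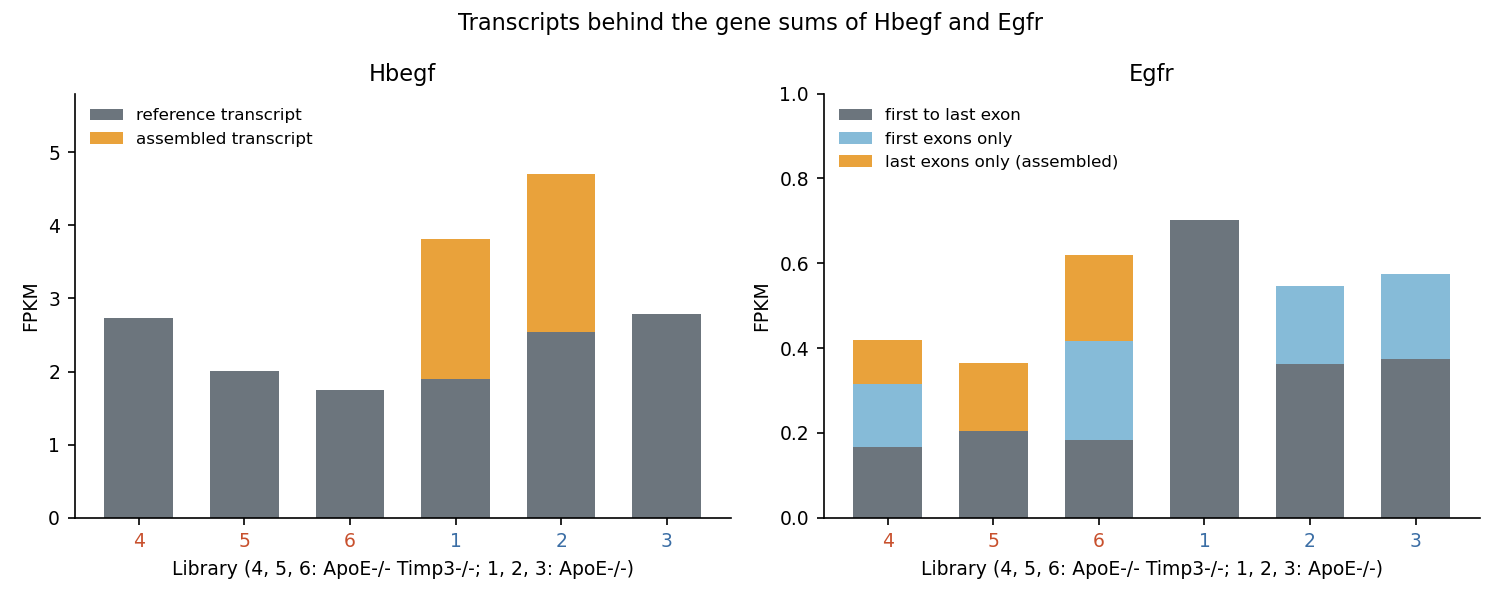
FPKM (vertical axes) of Hbegf and Egfr in each library, double mutants left, stacked by transcript: reference and assembled for Hbegf, and by the exons covered for Egfr. The Hbegf bars of libraries 1 and 2 exceed the rest only by their assembled part, and the last-exon form of Egfr appears in libraries 4, 5 and 6.

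The other ligands of EGFR were all below 1 FPKM. Egf, the founding growth factor of the family, was at 0.640, 0.592 and 0.689 FPKM in libraries 4, 5 and 6, against 0.591, 0.832 and 0.977 in libraries 1, 2 and 3. Control library 1 lay below every double mutant, so the groups overlapped. By aligned bases per kilobase and per megabase aligned, chosen after seeing the data, Egf did not overlap, with library 5 only just below library 1. It was then at 0.750, 1.04 and 0.961 in the double mutants and 1.06, 1.34 and 1.18 in the controls (log2 -0.16, adjusted p = 0.73 by limma). These single-library values had no median-of-ratios scaling, and the share of all genes without overlap by this measure was not computed. Erbb2, Erbb3, Erbb4, Nrg1, Tgfa and Btc overlapped by that measure too. Tgfa, encoding TGF-alpha, was at 0.137, 0.370 and 0.392 FPKM in the double mutants and 0.691, 0.209 and 0.167 in the controls. Tgfa had the same high and low libraries as Erbb4, as the plot beside the atrial genes shows. Btc, encoding betacellulin, which also binds ERBB4, was at 0.138, 0.0804 and 0.381 FPKM in the double mutants, against 0.408, 0.272 and 0.327 in the controls. Libraries 4 and 5 were below all controls and library 6 was above 2 of them. Exact permutation p were 0.5 for Egf, 1 for Tgfa and 0.4 for Btc (two-sided, 3 against 3 libraries).

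Of the neuregulins, Nrg1 had the lowest mean of the members listed above 0, and Nrg4 was listed at 0. Nrg1, the neuregulin of heart endothelium (chromosome 8, 32928500 to 33119581), was at 0.0825, 0.297 and 0.199 FPKM in libraries 4, 5 and 6, against 0.654, 0.115 and 0.0359 in libraries 1, 2 and 3. The lowest and the highest value were both controls (exact permutation p = 0.9). These levels rested on 229, 674 and 386 aligned bases in the double mutants and 1107, 523 and 89.2 in the controls. In library 1 most of the sum, 0.505 FPKM, came from a shorter reference transcript of 8 exons. Nrg4, a neuregulin known from brown fat, had 14 reference transcripts and was listed at 0 in all 6 libraries. Library 1 held brown fat RNA, with the brown fat gene Ucp1 at 31.6 FPKM, against 0 to 0.0398 in the other 5, and Nrg4 was at 0 there too. Transcripts of Fbxo22 on the opposite strand overlapped Nrg4 exons by 359 to 368 bases. An exact 0 in these files can be a failed estimate, and neither this nor a part of the overlap in the Nrg4 values was tested.

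Other genes of the pathway were read from 8 lists of 98 genes, of which 84 entered the test and 0 passed it by limma's adjusted p. At an unadjusted p under 0.05 stood 2 genes, Rab11a and Rhbdf1, both higher, and 0 lower, which is 2 and 0 of 84 against 6.73% and 5.18% of all genes. The groups did not overlap in 4 genes that were higher and 8 that were lower in the double mutants, of 84, against 9.83% and 9.14% of all genes. The lower count was thus near the share over all genes, and the other 3 counts were below theirs. The difference was above 0 in 31 genes and below 0 in 53, with a median of -0.09 (log2), against a median of -0.01 and 50.9% of genes below 0 over all genes tested. Of the 14 genes under the filter, 5 were the remaining ligands Areg, Ereg, Epgn, Nrg2 and Nrg3, the highest being Nrg2 with a mean of 0.311 FPKM; the others were Grb7, Lrig3, Fos, Fosl1, Myc, Dusp4, Pik3cd, Cblc and Adam12.

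The proteases and helpers that release the ligands mostly had values below 0, without passing the test. Of 10 listed, 9 were tested, 8 were below 0 and the median was -0.15, where 50.9% of all genes tested were below 0. Adam17, the main sheddase of TGF-alpha and HB-EGF, was at 3.28, 3.19 and 3.64 FPKM in the double mutants and 4.34, 3.65 and 4.04 in the controls. The highest double mutant lay just under the lowest control, and the log2 difference was -0.14 (adjusted p = 0.70 by limma). Adam10, the main sheddase of EGF and betacellulin, was at 7.07, 6.18 and 8.18 FPKM, against 10.1, 8.66 and 8.23, with a log2 difference of -0.23 (adjusted p = 0.47 by limma). Adam15, another metalloprotease, was at 10.6, 6.55 and 8.99, against 12.3, 13.6 and 10.1 (log2 -0.37). After scaling, these 3 of the 9 genes tested were lower in each double mutant than in each control, as were 9.14% of all genes. They were named for their small p within the list, and 0 of them had an unadjusted p under 0.05. Rhbdf1, which escorts ADAM17 to the cell surface, went the other way: scaled means were 6.06 ± 0.205 FPKM in the double mutants and 4.85 ± 0.481 in the controls (SD, n = 3 each; log2 0.27, unadjusted p = 0.044, adjusted p = 0.40 by limma).

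Inside the cell, the lists of adaptors, RAS-MAPK and PI3K-AKT genes had most members below 0, against 50.9% of all genes tested. They were 13 of 15, 11 of 13 and 9 of 11 tested, with medians of -0.13, -0.11 and -0.11. Grb2, the adaptor that links the receptors to RAS, was an exception, at a scaled mean of 18.6 ± 2.52 FPKM in the double mutants and 14.7 ± 1.43 in the controls (SD, n = 3 each; log2 0.31, adjusted p = 0.44 by limma). Nck1, another adaptor, was at 7.37 ± 0.620 against 9.01 ± 0.768, and Gab2, a docking protein, at 2.12 ± 0.375 against 2.75 ± 0.345. After scaling, the groups did not overlap for these 3 genes, and overlapped for the adaptor Shc1 (4.04 ± 0.251 against 4.65 ± 0.572). Of the 15 adaptors tested, 1 was higher and 2 were lower without overlap, against 9.83% and 9.14% of all genes. Mtor, the growth kinase downstream of AKT, was at 3.22 ± 0.586 FPKM in the double mutants and 4.17 ± 0.270 in the controls (log2 -0.30), without overlap. Gsk3b, a kinase held back by AKT, had a log2 difference of -0.32, and Pik3r1, a regulatory subunit of PI3-kinase, one of 0.22. Of the RAS-MAPK genes with the smallest p, Map2k1 (MEK1), Rps6ka1 and Rps6ka3 (kinases activated by ERK) differed by -0.25, -0.23 and -0.25. Nras was at 4.08, 4.49 and 0 FPKM in the double mutants and 6.71, 4.89 and 3.86 in the controls. Whether its listed 0 in library 6 is a failed estimate was not tested. Adjusted p by limma were at least 0.44 for all genes of these 3 lists named here.

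The lists of brakes on the receptors, of chaperones and traffic, and of immediate targets had medians on the other side of 0. Of the brakes, 18 of 20 were tested, 13 were above 0 and the median was 0.05, where 49.1% of all genes tested were above 0. Errfi1, an inhibitor that binds the kinases of EGFR and ERBB2, was at 5.09 ± 1.68 FPKM in the double mutants and 3.81 ± 0.755 in the controls (SD, n = 3 each; log2 0.31). Lrig1, which promotes the breakdown of the receptors, was at 3.22 ± 0.636 against 3.95 ± 0.891, and Socs5 and Spred2, inhibitors further along the pathway, differed by -0.21 and -0.20. The groups overlapped for these 4 genes. Of the chaperone and traffic genes, 12 of 12 were tested, 7 were above 0 and the median was 0.09. Rab11a, a GTPase that returns receptors to the surface, was at 31.7, 28.7 and 33.8 FPKM in the double mutants and 26.7, 21.9 and 20.5 in the controls. It had the smallest p of the pathway genes, with an unadjusted p of 0.0016 and an adjusted p of 0.24 by limma. Its scaled means were 32.1 ± 1.17 against 22.3 ± 0.539 (SD, n = 3 each), with a log2 difference of 0.51. With aligned bases, chosen after seeing the data, 0 pathway genes were higher at an unadjusted p under 0.05 by limma, so Rab11a did not reach it. Hsp90aa1 and Cdc37, a chaperone and its helper that stabilise ERBB2, differed by 0.42 and 0.38 and Rab5a, an early endosome GTPase, by -0.21, each with overlap. Of the immediate targets, 6 of 10 were tested and the median was 0.10. Jun differed by 0.25, Dusp1, a phosphatase of MAP kinases, by 0.21, Egr1 by -0.27 and Junb by -0.20, and the groups overlapped for all 4.

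**Figure D5:**
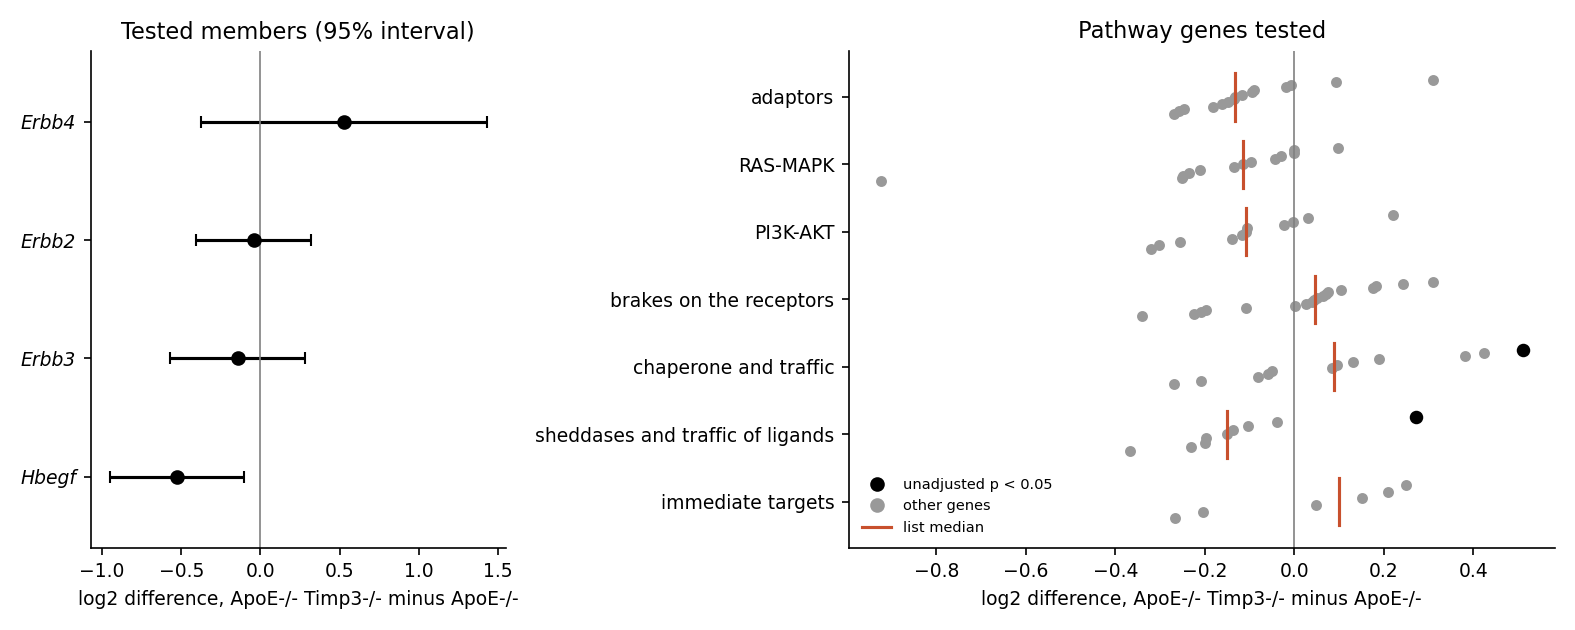
Log2 differences, double mutants minus controls (horizontal axes), of the 4 members tested, with 95% intervals (left), and of the 84 pathway genes tested, by list, with list medians (right). The interval of Hbegf alone lies to the left of 0, and black points mark Rab11a and Rhbdf1, the 2 pathway genes at an unadjusted p under 0.05.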

How the data were processed

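Each library has 1 deposited Cufflinks file that lists every transcript with its FPKM and coverage, per the file attributes; the authors normalized libraries one by one. The submitters' processing notes name TopHat, Bowtie, Cufflinks and NCBIM37; versions, settings, read length and strandedness were not stated in any source used here. Counts per gene were not analysed here.

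With GENCODE M21, reference transcripts were assigned to genes by transcript ID (82348), by the file's own gene ID (2308) or by overlapping exons (6293, minimum 50%); 3721 remained without a gene. Of 70603 assembled transcripts, 38933 joined a gene on the same strand, at the same minimum overlap and a length of 300 nt or more. FPKM were then summed by gene; single-library values are these sums, unscaled. M21 served for names and for the 3 printed exons only.

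The test took in genes whose mean FPKM reached 1 and whose longest transcript reached 300 nt. After median-of-ratios scaling, log2(scaled FPKM + 1) was fitted with limma 3.58.1 (R 4.3.3, trend option, two-sided), adjusted by Benjamini-Hochberg over 11270 genes. The pseudocount understates differences of low genes. The fit was checked on simulated data. Means ± SD are of scaled FPKM. Exact permutation p used scipy 1.17.1. Beyond calling the controls littermates, no source used here says how the animals relate, and p-values reflect only how far these libraries vary, which may be technical. Depth is known as aligned bases only, so no counting interval is given.

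The members and all gene lists were chosen with earlier results of these data known. Named genes are the 10 members, Timp3, the 4 tested genes of each pathway list with the smallest p, genes under the filter, and the 3 tested genes nearest in pattern to each tested receptor (root mean square distance of log2 deviations over 6 libraries), and, of cell type lists, the 2 highest markers and those at 0. One gene that this rule names is not reported here. Sln, Myl4, Fbxo22 and, of the smooth muscle markers, Pdgfrb, Kcnj8 and Notch3 were named after their values were seen. Of the red blood cell list, 2 genes could not be matched.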

Additional observations from a re-analysis of the deposited data

How the results depend on the processing

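No paired analysis was possible because the libraries are numbered 1 to 6 without a number shared between the genotypes. The members past the threshold stayed at 0 under each alternative. For the 4 members tested, the direction held under every alternative that gave a value, with 3 exceptions. Erbb2 turned to 0.0071 (log2) under quantile normalization and to 0.033 without library 1, in a range from -0.16 to 0.033 with a library left out. Erbb3 turned to 0.078 with assembled transcripts counted on either strand. That choice added a transcript of the opposite strand in every library except library 1, and whether it holds Erbb3 reads was not tested. Erbb2 was at -0.42 with the strongest reference transcript, and Erbb4 at 0.82 with array weights. Erbb3 and Erbb4 fell under the filter, and gave no value, with reference transcripts only and with the strongest reference transcript, both of which leave out assembled transcripts. The genes past the threshold over all genes were 5, and 3 with a pseudocount of 0.1, 9 without the filter, 9 with a filter at 0.1, 8 with reference transcripts only, 58 with array weights, 9 with either strand, 11 with aligned bases, and 3 to 11 with a library left out. The pathway genes at an unadjusted p under 0.05 and higher were 2, and 1 without scaling, 1 with a fixed total, 1 with a filter at 0.1, 5 with array weights, 0 with aligned bases and 1 to 6 with a library left out. Those that were lower were 0, and 2 under quantile normalization, 10 with a fixed total, 2 without the filter, 1 with a filter at 0.1, 3 with reference transcripts only, 1 with the strongest reference transcript, 8 with array weights, 2 with either strand, 2 with aligned bases and 0 to 4 with a library left out. Scaling to a fixed total moved the median of all genes to -0.16, which shifts the counts downward; for the rest the cause was not tested. Without the filter, the members under it differed by -0.15 (Btc), -0.11 (Egfr and Egf), -0.02 (Nrg1) and -0.01 (Tgfa), and 0 of them passed. The either-strand and aligned-base alternatives were chosen after seeing the data. Library 4 carried the lowest array weight, 0.35, and library 3 the highest, 3.06.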
